A study of Mus musculus with 8 samples.

Results

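The genes described here carry glucose into the cell, break it down to lactate and form or answer the hypoxia-inducible factor HIF-1. They were taken by symbol from a table of 55880 rows, and all 32 were found, 21 of glucose uptake and glycolysis and 11 linked to HIF. RNA sequencing was done on mouse bone marrow-derived dendritic cells, which present antigen to T cells and are grown from marrow in culture. The marrow came from male wild-type C57BL/6 mice 6 weeks old, and the cultures received 10 ng/mL IL-4 and 20 ng/mL GM-CSF over 6 days. The 4 LMF libraries come from cells that took up ITRs for 24 h and were then put in a low-frequency magnetic field. The 4 Control libraries come from untreated cells, and both groups were collected 6 h after treatment. The labels do not spell out ITR; the title of the series speaks of a magnetic torque-regulator inside the cell. No group here received ITRs alone or the field alone, so the parts of the treatment cannot be told apart. Another arm named in the design text was not analysed here.

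Glucose enters through carriers of the SLC2A family, is phosphorylated by hexokinases and committed to breakdown by phosphofructokinase, the main control point of the pathway. Later enzymes recover ATP and NADH and make pyruvate, which is turned into lactate and exported, or enters mitochondria. HIF-1 is a pair of HIF-1alpha (Hif1a) and its constant partner ARNT. Where oxygen is present, prolyl hydroxylases (Egln1, Egln3) mark HIF-1alpha for the VHL ubiquitin ligase and its destruction, so the messenger level of Hif1a does not give the level of the protein. Many glycolytic genes are known HIF-1 targets, and dendritic cells are known to raise glycolysis when Toll-like receptors activate them.

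HIF binds DNA at a short core, ACGTG or GCGTG. The promoters of the called genes with the most change, 3 glycolytic and 2 HIF-linked, show where those letters stand. All of these genes rose. Pfkfb4, which fell by nearly as much as Pfkfb3 rose, came next and is not printed. Bnip3l, the other called HIF-linked gene, which fell, had no promoter in the RefSeq table. The printed promoters run from 250 bases before to 50 bases after the most upstream start that RefSeq lists on GRCm38.p6. Each is written 5′ to 3′ on the gene's strand, and capitals mark either core on either strand. They lie at chr4:119108495-119108794 (Slc2a1, plus strand), chr3:104638414-104638713 (Slc16a1, plus), chr2:11553880-11554179 (Pfkfb3, minus), chr12:73907617-73907916 (Hif1a, plus) and chr10:59323046-59323345 (P4ha1, plus).
Slc2a1: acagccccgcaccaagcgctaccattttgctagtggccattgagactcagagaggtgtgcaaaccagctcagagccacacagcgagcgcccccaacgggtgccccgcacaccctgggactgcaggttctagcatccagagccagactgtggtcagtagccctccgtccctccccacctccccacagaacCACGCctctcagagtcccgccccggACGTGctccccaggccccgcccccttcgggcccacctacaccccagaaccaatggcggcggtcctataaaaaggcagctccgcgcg
Slc16a1: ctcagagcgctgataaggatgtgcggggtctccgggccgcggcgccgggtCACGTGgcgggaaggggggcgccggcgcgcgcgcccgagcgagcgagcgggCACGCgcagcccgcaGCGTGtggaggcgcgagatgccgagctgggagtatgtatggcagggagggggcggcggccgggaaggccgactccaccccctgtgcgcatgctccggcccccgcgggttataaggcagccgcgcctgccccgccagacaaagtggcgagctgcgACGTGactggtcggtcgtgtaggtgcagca
Pfkfb3: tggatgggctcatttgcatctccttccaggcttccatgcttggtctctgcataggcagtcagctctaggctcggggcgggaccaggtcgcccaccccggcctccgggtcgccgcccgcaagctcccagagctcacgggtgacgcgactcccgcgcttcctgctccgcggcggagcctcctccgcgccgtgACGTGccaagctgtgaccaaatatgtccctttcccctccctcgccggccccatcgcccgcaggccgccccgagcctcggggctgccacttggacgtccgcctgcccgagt
Hif1a: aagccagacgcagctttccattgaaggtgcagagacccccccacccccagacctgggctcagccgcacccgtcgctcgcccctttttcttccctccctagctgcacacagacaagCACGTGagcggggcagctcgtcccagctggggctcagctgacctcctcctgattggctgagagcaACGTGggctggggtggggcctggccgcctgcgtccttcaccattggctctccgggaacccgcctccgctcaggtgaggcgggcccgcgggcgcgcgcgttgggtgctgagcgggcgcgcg
P4ha1: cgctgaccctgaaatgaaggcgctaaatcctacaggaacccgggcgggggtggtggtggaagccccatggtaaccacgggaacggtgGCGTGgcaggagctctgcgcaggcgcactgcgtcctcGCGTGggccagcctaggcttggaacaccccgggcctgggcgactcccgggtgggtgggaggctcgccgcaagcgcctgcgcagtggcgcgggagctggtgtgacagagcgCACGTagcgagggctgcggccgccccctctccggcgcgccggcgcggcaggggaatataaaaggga
A run of 6 capitals is the core read on both strands at once. Of the 21 glycolytic promoters, 16 (76.2%) held ACGTG or GCGTG on either strand, as did 7 of the 9 HIF-linked promoters in the RefSeq table (77.8%) and 43.8% of 27025 promoters, 1 per gene. For ACGTG alone the shares were 52.4%, 55.6% and 19.6%, and for GCGTG 47.6%, 55.6% and 32.5%. The 30 promoters of these genes had a median GC content of 63.7%, against 52.7% over all promoters, and its part in the shares was not tested. A match is a description of letters and not of binding. Many of the listed genes are known HIF-1 targets, and the 27025 promoters were not limited to tested genes. The shares therefore describe these lists only. No match was found in the same window of Hk1, Gpi1, Aldoa, Tpi1, Pkm, Vegfa or Vhl. Hk1, Pkm and Vegfa have 2 listed starts and Aldoa has 3, and only the most upstream was read.

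Among all 14074 tested genes, 4845, or 34.4%, differed between LMF and Control (edgeR's quasi-likelihood test, Benjamini-Hochberg adjusted p under 0.05), 17.5% higher and 16.9% lower. Libraries held 16592672 to 21585750 counts, and the first principal component, with 44.6% of the variance, split the groups. LMF replicate 4 stood apart from the other LMF libraries on the second, which held 10.7%. Without it no call among the 31 tested genes of the set changed, while Mpc1, of a further list below, lost its call. Of 12 dendritic cell markers, 11 were tested: Itgax (CD11c), Flt3, Zbtb46, Ccr7 and Dpp4 rose, Cd74 fell, and Cd209a had at most 5 counts in a library. H2-Ab1, H2-Aa, H2-Eb1, Batf3 and Irf4 did not pass. The sums of this list overlapped, at 8610 to 9057 CPM in Control and 8477 to 9665 CPM in LMF. Of 9 macrophage markers 7 fell, while Adgre1 and Csf1r did not pass. The summed level of the list went from 5934 to 6653 CPM in Control to 4028 to 4201 CPM in LMF. Most of that drop was Apoe, which fell from a mean of 3162 to 1302 CPM. Of 9 neutrophil markers 4 rose and 1 fell, with sums of 1608 to 1679 CPM in Control and 1755 to 1983 CPM in LMF. Of 5 monocyte markers 1 rose and 2, Ccr2 and Fn1, fell, and the sum moved from 2500 to 2643 CPM to 1762 to 1880 CPM. Of 5 mast cell and basophil markers 2 rose, with sums of 90.5 to 104 CPM in Control and 110 to 121 CPM in LMF. T and NK cell, B cell and erythroid lists summed to at most 10.9 CPM in any library, with no member called. CPM is the usual depth-scaled read count, here after TMM scaling of library totals, and no listed marker was at 0 in all libraries. In bulk RNA, a change in the share of a cell type and a change in RNA per cell cannot be told apart, and the part of these markers in the results that follow was not tested.

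Of the 31 genes that could be tested, 13 rose and 3 fell, so 51.6% were called against 34.4% of all genes. Glycolysis held 11 of the rises and 2 of the falls among 21 genes, with a median log2 fold change of 0.12. The HIF-linked genes gave 2 rises and 1 fall among 10, with a median of -0.01, and their share of calls was near that of all genes. Over all tested genes the median was near 0. Of the 16 calls, 9 reached a log2 fold change of 0.3 in either direction, and 18.8% of all tested genes passed with a change that large. Groups did not overlap for 19 of the 31, 14 with LMF above and 5 with LMF below, against 31.8% of all tested genes. Whether the share of calls differs between glycolytic and HIF-linked genes was not tested.

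**Figure D1:**
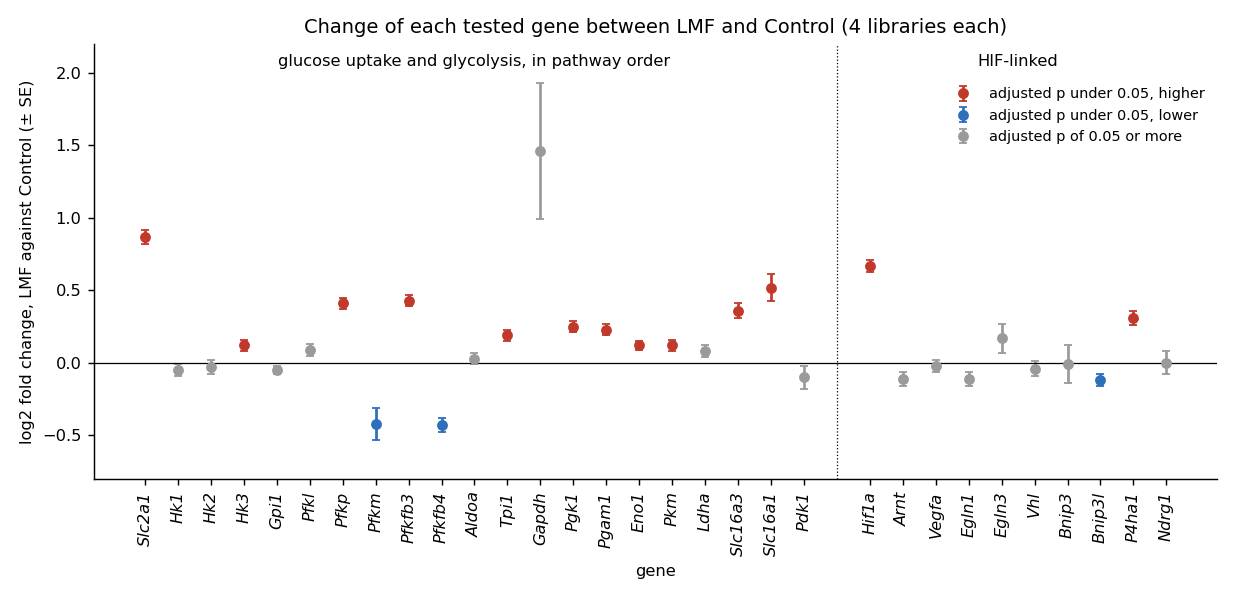
Log2 fold change of LMF against Control for the 31 tested genes, in pathway order on the left and HIF-linked on the right; points are edgeR estimates, bars are standard errors, and colour gives the call. Slc2a1 (0.87) and Hif1a (0.67) stand above the other called genes, Pfkm (-0.42) and Pfkfb4 (-0.43) lie lowest, and Gapdh has the widest error (0.47).

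Glucose uptake showed the largest called change in the set. Slc2a1 encodes GLUT1, the carrier for basal glucose uptake in many cells. In the Control libraries it stood at 61.0, 63.8, 66.6 and 57.5 CPM, and in the LMF libraries at 107, 117, 112 and 120 CPM. The groups did not overlap, and each LMF library was far above the highest Control library. The mean went from 62.2 ± 3.91 to 114 ± 5.69 CPM (SD, n = 4), a 1.83-fold rise (log2 fold change 0.87 ± 0.05 SE, edgeR adjusted p = 4.56e-16).

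The hexokinases, which trap glucose as glucose 6-phosphate, changed little. Hk3, the isozyme typical of myeloid cells, was at 211 to 216 CPM in Control and 213 to 244 CPM in LMF. It passed at a log2 fold change of 0.12 ± 0.04 (edgeR adjusted p = 0.019) although LMF replicate 1 lay within the Control range. The call was lost without Control replicate 2 or 3, without LMF replicate 2 or 3 (edgeR adjusted p from 0.0571 to 0.0954), and on log2 FPKM (limma adjusted p = 0.0653 and 0.0657). Hk1, the housekeeping isozyme, was at 155 ± 5.36 and 151 ± 2.81 CPM (SD, n = 4), and its log2 fold change of -0.05 ± 0.04 did not pass. Hk2, the inducible isozyme and a known HIF-1 target, did not pass either, at -0.03 ± 0.05 (edgeR adjusted p = 0.693). Gpi1, which turns glucose 6-phosphate into fructose 6-phosphate, was at 764 ± 10.0 and 737 ± 21.1 CPM (SD, n = 4) and did not pass.

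At the phosphofructokinase step the isozymes went in different directions. Pfkp, the platelet isozyme, was at 113, 122, 121 and 117 CPM in Control and at 154, 163, 161 and 151 CPM in LMF. All LMF libraries were above all Control libraries, and the log2 fold change was 0.41 ± 0.04 (edgeR adjusted p = 6.78e-10). Pfkm, the muscle isozyme, moved the other way at a low level. Its Control libraries held 12.6, 11, 12.1 and 10.8 CPM and its LMF libraries 8.19, 7.89, 9.61 and 8.92 CPM, again without overlap. The log2 fold change was -0.42 ± 0.11 (edgeR adjusted p = 0.00331). Pfkl, the liver isozyme and the one with the highest FPKM of the 3, was at 165 ± 6.11 and 176 ± 4.82 CPM (SD, n = 4) and did not pass (0.09 ± 0.04, edgeR adjusted p = 0.0736). Pfkp shares 748 bases with Pitrm1 and Pfkm shares 1156 bases with Senp1, each on the opposite strand, with 29.4% and 511% of the gene's counts. Strand use in the counting is not stated, so reads there may be split, and the low count of Pfkm in particular is uncertain.

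The enzymes that set fructose 2,6-bisphosphate, the strongest known activator of phosphofructokinase, also went apart. PFKFB3 mainly makes this activator, and its gene stood at 210, 196, 200 and 198 CPM in Control and 295, 252, 276 and 263 CPM in LMF. No LMF value reached down to the Control range. The log2 fold change of Pfkfb3 was 0.43 ± 0.04 (edgeR adjusted p = 2.89e-10). Pfkfb4, which has both the kinase and the phosphatase activity and is a known hypoxia-induced gene, was at 79.5, 82.9, 78.7 and 75.2 CPM in Control. Its LMF libraries were at 53.5, 60.2, 61.2 and 60.5 CPM, all lower. It fell by 0.43 ± 0.05 on the log2 scale (edgeR adjusted p = 5.47e-08).

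**Figure D2:**
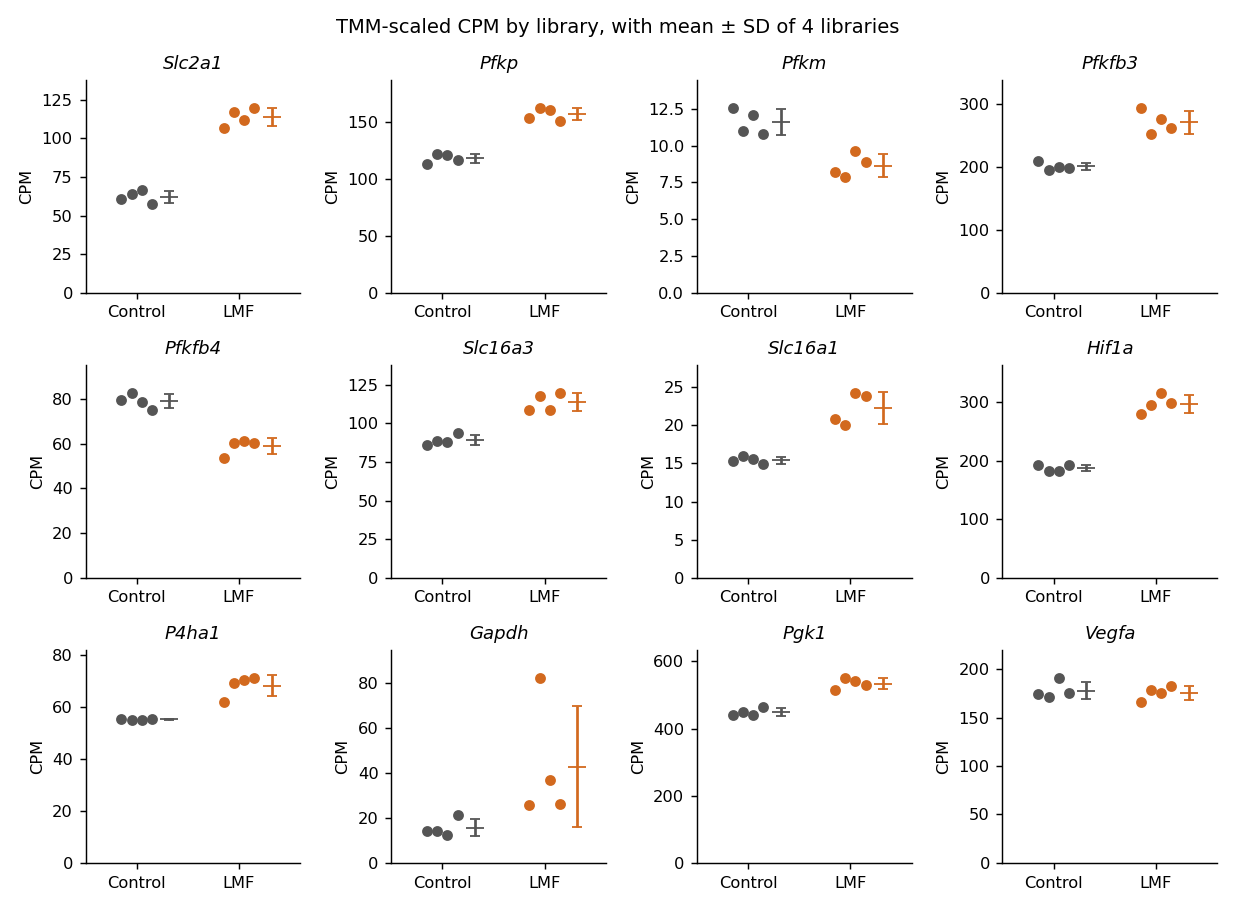
TMM-scaled CPM of 12 genes in each of the 8 libraries, on linear axes that start at 0; dots are libraries, and the bar beside each group is the mean with its SD over 4 libraries. Groups are separate for every gene shown other than Vegfa, and for Gapdh the LMF group is spread by replicate 2 at 82.3 CPM.

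Isozyme make-up was read per length from the deposited FPKM. The lengths behind it were unequal, at 6675, 13401 and 3340 bases for Pfkl, Pfkp and Pfkm. For Hk1, Hk2 and Hk3 they were 8532, 5969 and 3682 bases. The size and rank of the shares depend on these lengths. Pfkfb3 made up 60.4% to 63.0% of the summed FPKM of Pfkfb3 and Pfkfb4 in Control and 73.0% to 78.1% in LMF. Of the 3 phosphofructokinase genes, Pfkp went from 23% to 25.1% in Control to 28.6% to 29.3% in LMF, while Pfkm went from 8.84% to 10.3% to 5.69% to 6.88%. Pfkl kept the largest share, 65.9% to 67.3% in Control and 64.4% to 65.1% in LMF. Among hexokinases Hk3 held 63.1% to 64.4% in Control and 64.8% to 67.7% in LMF, and the shares of Hk1 and Hk2 overlapped between groups. These shares are sums of messages and not of enzyme, and they were not tested.

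**Figure D3:**
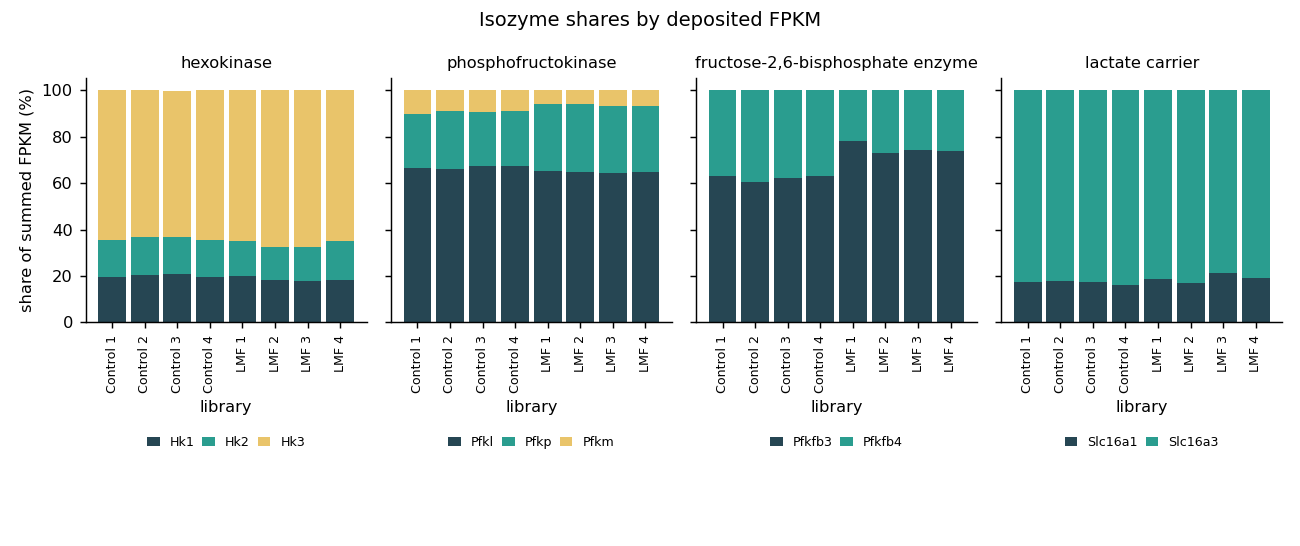
Share of the summed deposited FPKM (%) held by each isozyme in each library, at 4 steps: hexokinase, phosphofructokinase, the enzymes of fructose 2,6-bisphosphate, and lactate carriers; each bar is 1 library. The Pfkfb3 part is 60.4% to 63.0% in Control and 73.0% to 78.1% in LMF, and the lactate carriers overlap between groups.

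In the lower part of glycolysis most genes rose by little. Aldoa, the aldolase and the gene with the highest FPKM of the set, was at 1193 ± 42.9 and 1220 ± 53.8 CPM (SD, n = 4) and did not pass. Tpi1, which interconverts the triose phosphates, rose from 223 ± 4.85 to 255 ± 14 CPM (SD, n = 4), a log2 fold change of 0.19 ± 0.04 (edgeR adjusted p = 2.29e-04). Spsb2 shares 34 bases with it on the opposite strand and holds 12% of its counts.

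Pgk1, phosphoglycerate kinase, makes the first ATP of the lower pathway. It stood at 440, 450, 440 and 464 CPM in Control and at 514, 551, 542 and 528 CPM in LMF. With no overlap, the log2 fold change was 0.25 ± 0.04 (edgeR adjusted p = 7.38e-07). Pgam1, the mutase of the next step, moved by a like amount, 0.23 ± 0.04 (edgeR adjusted p = 7.21e-06), from 414 ± 14.7 to 488 ± 22.7 CPM (SD, n = 4). Eno1, the enolase, rose from 905 ± 14.2 to 985 ± 32.8 CPM (SD, n = 4), a log2 fold change of 0.12 ± 0.03 (edgeR adjusted p = 0.00523).

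Pkm, pyruvate kinase, makes pyruvate. It was at 1235, 1340, 1317 and 1334 CPM in Control and 1396, 1472, 1394 and 1419 CPM in LMF. The groups did not overlap, but the step is narrow, 0.12 ± 0.04 (edgeR adjusted p = 0.00729), and the call was lost without Control replicate 1 (edgeR adjusted p = 0.0659). The table gives 1 value for the gene, so its splice forms were not separated. Ldha makes lactate from pyruvate and is a textbook HIF-1 target. Its Control libraries were at 669, 686, 670 and 690 CPM and its LMF libraries at 697, 755, 706 and 718 CPM. All LMF libraries were above all Control libraries, and yet the log2 fold change of 0.08 ± 0.04 did not pass (edgeR adjusted p = 0.0668). It passed with DESeq2 (adjusted p = 0.0484), with limma-voom (0.0243) and without LMF replicate 1 (edgeR adjusted p = 0.0176).

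Gapdh needs its own account, since its values here are not those usual for this enzyme, which oxidises glyceraldehyde 3-phosphate. It had 233 to 1460 counts a library, and in FPKM 3.78 ± 0.906 in Control and 10.3 ± 6.35 in LMF (SD, n = 4), against 81.1 ± 1.45 for Tpi1 and 200 ± 3.93 for Pgk1 in Control (SD, n = 4). Per library it was at 14.4, 14.2, 12.6 and 21.2 CPM in Control and at 25.9, 82.3, 36.9 and 26.1 CPM in LMF. The groups did not overlap, and LMF replicate 2 held by far the highest value. The log2 fold change of 1.46 ± 0.47 did not pass (edgeR adjusted p = 0.0544). The fit without LMF replicate 2 gave 0.93 and passed (edgeR adjusted p = 0.0146), as did the fit without LMF replicate 1 (1.64, edgeR adjusted p = 0.0475) and DESeq2 (1.46, adjusted p = 0.00404). In log2(FPKM + 1) the difference was 1.11 (limma adjusted p = 0.0422). The table holds 168 pseudogenes like Gapdh in sequence, 78 of them with a count, and together they drew 10045 counts against 4217 on Gapdh itself. With their counts added to the gene, the log2 fold change was 0.45 and did not pass (edgeR adjusted p = 0.151). Iffo1 shares 68 bases with it on the opposite strand and has 193% of its counts. The counts of Gapdh and of its copies together stayed below the 35004 counts of Tpi1. Reads of Gapdh and of its copies may be split or dropped in the counting, which was not tested. Neither the level of Gapdh nor its change is therefore firm.

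Both lactate carriers rose. Slc16a3 encodes MCT4, the exporter of highly glycolytic cells. In Control it was at 86.1, 88.8, 88.0 and 93.8 CPM and in LMF at 109, 118, 109 and 120 CPM. The groups were separate, with a log2 fold change of 0.36 ± 0.05 (edgeR adjusted p = 1.10e-07). Csnk1d shares 1879 bases with it on the opposite strand and has 190% of its counts. Slc16a1 encodes MCT1, which moves lactate and pyruvate both ways, and it was at 15.3, 16, 15.6 and 14.9 CPM in Control and 20.8, 20.1, 24.3 and 23.8 CPM in LMF. Every LMF library exceeded every Control library, and the log2 fold change was 0.52 ± 0.09 (edgeR adjusted p = 1.10e-05). Per length Slc16a3 stayed the higher of the pair, at 82.2% to 83.9% of their summed FPKM in Control and 78.9% to 83.0% in LMF. Pdk1, the kinase that holds pyruvate back from mitochondria and another known HIF-1 target, was at 32.6 ± 0.614 and 30.4 ± 3.82 CPM (SD, n = 4) and did not pass (-0.10 ± 0.08, edgeR adjusted p = 0.325).

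Among the HIF-linked genes, the factor itself moved most. Hif1a was at 192, 182, 183 and 192 CPM in Control and at 279, 295, 316 and 298 CPM in LMF. No value of the groups overlapped, and the means were 187 ± 5.63 and 297 ± 15 CPM (SD, n = 4). That is a 1.59-fold rise (log2 fold change 0.67 ± 0.04, edgeR adjusted p = 1.13e-15). Its partner Arnt was at 71.5, 71.2, 69.1 and 76.5 CPM in Control and at 66.0, 65.6, 67.7 and 68.0 CPM in LMF. The LMF libraries were all lower, but by little, and the log2 fold change of -0.11 ± 0.05 did not pass (edgeR adjusted p = 0.0957).

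Of the genes that mark HIF-1alpha for destruction, the 3 of the set, Vhl, Egln1 and Egln3, did not pass. Vhl was at 128, 118, 123 and 121 CPM in Control and 129, 118, 117 and 110 CPM in LMF, and the groups overlapped (-0.04 ± 0.05, edgeR adjusted p = 0.51). Egln1, which encodes PHD2, the main oxygen sensor of the family, was at 64.5 ± 1.24 and 59.5 ± 2.29 CPM (SD, n = 4). All LMF libraries lay below all Control libraries, but the log2 fold change of -0.11 ± 0.05 did not pass (edgeR adjusted p = 0.0869). It passed on log2 FPKM at either pseudocount (limma adjusted p = 0.0406 and 0.0414) and without LMF replicate 1 (edgeR adjusted p = 0.0484). Egln3, which encodes PHD3 and is itself a HIF target, was at 13.5 ± 0.922 and 15.2 ± 1.73 CPM (SD, n = 4), and 0.17 ± 0.10 did not pass. Egln2, which encodes the related hydroxylase PHD1 and comes from a further list, was named after its values were seen. It was at 71.9 ± 3.19 CPM in Control and 65.0 ± 4.47 CPM in LMF (SD, n = 4), without overlap, and passed at -0.15 ± 0.05 (edgeR adjusted p = 0.0353). That call was lost without Control replicate 1, 3 or 4 or LMF replicate 3 (edgeR adjusted p from 0.0602 to 0.167) and on log2 FPKM (limma adjusted p = 0.054 and 0.0545).

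Known targets of HIF-1 outside glycolysis were divided. P4ha1, a collagen prolyl hydroxylase subunit, was at 55.4, 55.0, 55.1 and 55.5 CPM in Control and at 62.1, 69.4, 70.4 and 71.3 CPM in LMF. The groups were separate, with a log2 fold change of 0.31 ± 0.05 (edgeR adjusted p = 2.08e-05). Bnip3l, the mitophagy receptor also called NIX, went from 186 ± 5.79 to 172 ± 7.15 CPM (SD, n = 4). Its log2 fold change of -0.12 ± 0.04 passed (edgeR adjusted p = 0.0233) and was lost without Control replicate 2 or 4 or LMF replicate 2 (edgeR adjusted p from 0.0709 to 0.0781). Its relative Bnip3 was low, at 8.46 ± 0.443 and 8.42 ± 1.28 CPM (SD, n = 4), and did not pass.

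Vegfa, the angiogenic growth factor and a classic HIF-1 target, was at 174, 171, 191 and 175 CPM in Control and 166, 178, 175 and 183 CPM in LMF. The ranges overlapped in part, with a log2 fold change of -0.02 ± 0.04 (edgeR adjusted p = 0.821). Ndrg1, a gene induced by hypoxia and stress, was at 27.4 ± 0.592 and 27.3 ± 2.83 CPM (SD, n = 4) and did not pass. Adm, the peptide adrenomedullin, could not be tested, with 1 to 5 counts a library and 21 in all. Its libraries held 0.0459, 0.16, 0.0541 and 0.175 CPM in Control and 0.281, 0.0564, 0.216 and 0.181 CPM in LMF, values of a few reads each.

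**Figure D4:**
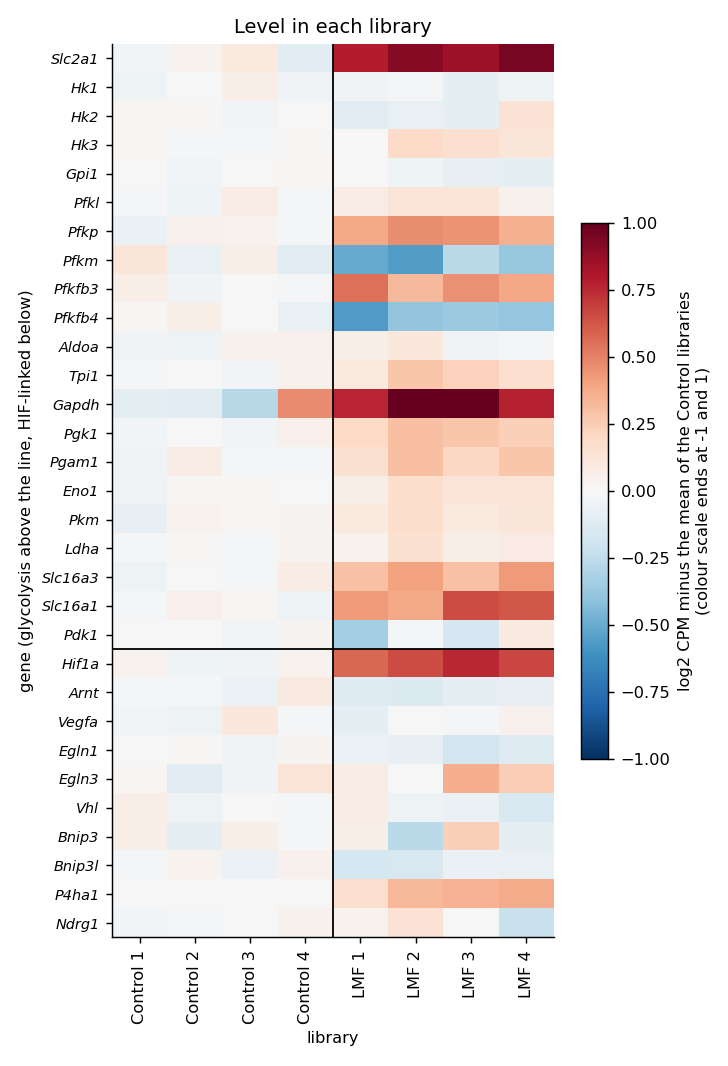
Level of the 31 tested genes in each library, as log2 CPM minus the mean of the Control libraries; red is above and blue below, colours end at -1 and 1, and the horizontal line parts glycolysis from HIF-linked genes. Slc2a1, Hif1a and Gapdh are high in the 4 LMF libraries and Pfkfb4 and Pfkm low in the same 4, while Vegfa, Vhl and Ndrg1 show no split.

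Against a stricter question, whether a gene changed by more than 1.2-fold, 9.89% of all tested genes passed. The genes of the set that passed were Slc2a1, Pfkp, Pfkfb3, Slc16a1 and Hif1a on the higher side and Pfkfb4 on the lower side. The summed counts of the 21 glycolytic genes were 0.71% to 0.724% of all counts in Control and 0.768% to 0.8% in LMF. For the 11 HIF-linked genes the range was 0.09% to 0.0927% in Control and 0.0982% to 0.104% in LMF. Both ranges were separate. Of the largest parts of the latter sum, Hif1a rose from a mean of 187 to 297 CPM. Bnip3l fell from 186 to 172 CPM, and Vegfa was at 178 and 176 CPM. The separate ranges of this sum therefore do not show a rise across the HIF-linked genes.

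Other genes of the pathways were read from further lists. Of 24 other glycolytic isozymes and carriers, 19 were tested, 2 rose and 6 fell, with a median log2 fold change of -0.04. That is 42.1% called, against 34.4% of all tested genes. Slc2a6, a carrier found in lysosomes of macrophages, rose by 0.80 ± 0.04 (edgeR adjusted p = 3.35e-18), from 150 to 162 CPM in Control to 261 to 275 CPM in LMF. Pgam2, the muscle mutase, was at -0.69 ± 0.11 (edgeR adjusted p = 6.83e-06) and Slc16a7, the carrier MCT2, at -0.64 ± 0.09 (edgeR adjusted p = 4.16e-07). Slc2a3, the carrier GLUT3, did not pass at 0.04. Slc2a8, a further carrier of the SLC2A family, was lower at -0.51 ± 0.09 (edgeR adjusted p = 4.83e-05).

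In the pentose phosphate branch, which makes NADPH and ribose, 3 of 11 rose and 1 fell, a share of calls near that of all genes. Prps1, which makes the ribose donor of nucleotide synthesis, rose by 0.33 ± 0.09 (edgeR adjusted p = 0.00432), and Pgd, the enzyme that yields the second NADPH, rose by 0.23 ± 0.03 (edgeR adjusted p = 1.01e-06). Shpk, which makes sedoheptulose 7-phosphate, was at -0.53 ± 0.14 (edgeR adjusted p = 0.00359).

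Pyruvate's entry to mitochondria gave 2 rises and 2 falls among 13 tested genes, 30.8% called, near the 34.4% of all tested genes. Pcx, pyruvate carboxylase, rose from 6.42 to 7.14 CPM in Control to 14.6 to 17.4 CPM in LMF, a log2 fold change of 1.19 ± 0.11 (edgeR adjusted p = 6.72e-11). Pdk2, a relative of Pdk1, was at -0.47 ± 0.11 (edgeR adjusted p = 0.00135), and Mpc1, a subunit of the mitochondrial pyruvate carrier, at -0.23 ± 0.09 (edgeR adjusted p = 0.0451). The Mpc1 call was lost with no filter (0.0709), with the replicate block (0.0515) and in 7 of 8 fits that left out 1 library, all but that without LMF replicate 3 (edgeR adjusted p from 0.0635 to 0.115).

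A wider list of 36 known HIF targets had 33 tested members, of which 11 rose and 8 fell around a median of 0.02. Hilpda, a lipid droplet protein, rose by 1.27 ± 0.14 (edgeR adjusted p = 3.41e-09), and Ak4, a mitochondrial adenylate kinase, rose by 0.99 ± 0.21 (edgeR adjusted p = 3.50e-04). Ak4 had few counts, 26 to 84 a library, with means of 2.16 CPM in Control and 4.28 CPM in LMF. Zfp395, a zinc finger gene, was lowest at -1.25 ± 0.10 (edgeR adjusted p = 1.71e-12). Tmem45a had no count in any library. The calls went in both directions: 57.6% of those tested were called, against 34.4% of all tested genes, 17.5% higher and 16.9% lower.

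Of 22 genes of the HIF machinery and of metabolites that act on it, 21 were tested, 3 rose and 5 fell (median -0.06), 38.1% called and near the 34.4% of all tested genes. Acod1, which makes itaconate, an inhibitor of succinate dehydrogenase, was at 66.0 to 77.9 CPM in Control and 591 to 716 CPM in LMF (3.18 ± 0.06, edgeR adjusted p = 2.60e-16). Arnt2, a relative of Arnt, rose by 0.87 ± 0.15 (edgeR adjusted p = 1.87e-05) from a level of 4.05 to 6.86 CPM. Epas1, which encodes HIF-2alpha, was at -0.39 ± 0.15 (edgeR adjusted p = 0.0454), with overlap between 6.92 to 11.1 CPM in Control and 5.55 to 9.11 CPM in LMF. The Epas1 call was lost with DESeq2 (adjusted p = 0.0585), with limma-voom (0.0719), on log2 FPKM (limma adjusted p = 0.153 and 0.157) and in 6 of 8 fits that left out 1 library, all but those without Control replicate 4 or LMF replicate 4 (edgeR adjusted p from 0.0637 to 0.162).

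Regulators of glycolysis had the highest share of calls of the 8 pathway lists, 70.6%, with 10 of 17 tested genes higher, 2 lower and a median of 0.21, against 34.4% of all tested genes called and 17.5% higher. Myc, a transcription factor that drives glycolytic genes, rose by 0.67 ± 0.10 (edgeR adjusted p = 7.39e-07), from 9.79 to 11.8 CPM in Control to 17 to 18.5 CPM in LMF. Ikbke, a kinase that acts with TBK1 on early glycolysis in dendritic cells, rose by 0.55 ± 0.04 (edgeR adjusted p = 2.45e-14), and Nfkb1, an NF-kappaB subunit, rose by 0.39 ± 0.04 (edgeR adjusted p = 8.14e-11). Txnip, which limits glucose uptake, was at 256 to 266 CPM in Control and 244 to 261 CPM in LMF and did not pass (-0.04 ± 0.04, edgeR adjusted p = 0.419). The lists were chosen by hand, so these shares describe the lists and no more.

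**Figure D5:**
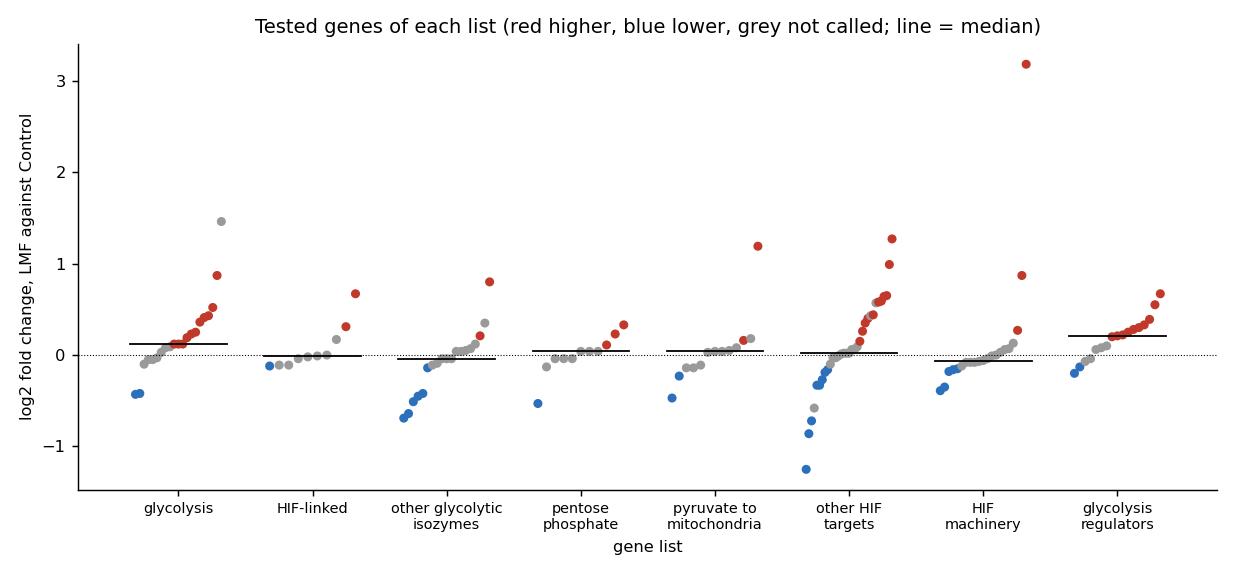
Log2 fold change of LMF against Control for the tested genes of 8 lists, each sorted from low to high; red marks genes called higher, blue lower, grey not called, and lines are list medians. Medians run from -0.06 (HIF machinery) to 0.21 (glycolysis regulators), and the single point near 3 is Acod1 (3.18).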

How the data were processed

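Poly(A)-selected RNA was sequenced from 4 Control and 4 LMF libraries, grouped by sample title, since another label field gives all 8 the same treatment. Whether libraries of 1 group stem from different mice or dishes is not said in the labels, so each p-value reflects spread among these libraries, which may be technical. Tools per the submitters' processing notes were Trimmomatic, HISAT2 2.0.5, HTSeq and DESeq2 with build mm10, with no role given. Per the file headers, the deposited values are raw read counts for each gene and FPKM computed by the authors. The table's coordinates are not those of GRCm38.p6: none of the 32 genes started within 1000 bases of its RefSeq start, so only the promoters are given by position. No per-sample column was left unmapped, and 464 rows carry no Ensembl identifier.

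Differences were tested with edgeR 4.0.16 in R 4.3.3 (glmQLFit, robust, and glmQLFTest, with group alone in the model) on the counts after filterByExpr and TMM scaling, adjusted over 14074 genes at 0.05. Standard errors were obtained as the size of the log2 fold change divided by √F. Deposited FPKM served to compare levels between genes. FPKM alternatives used limma 3.58.1 on log2(FPKM + 1) and log2(FPKM + 0.1). Counts of this comparison were simulated for 13870 genes. The test recovered 41% of 49 genes changed 1.25-fold, 73% of 48 changed 1.5-fold, 94% of 49 changed 2-fold and 100% of 48 changed 4-fold. It called 8 of 13676 unchanged genes. Far fewer genes were changed there than the 34.4% called in the data, so the same adjusted p asked for a smaller raw p-value. These shares therefore do not give the sensitivity of the test on the data. Other alternatives were DESeq2 1.42.0, limma-voom, other scalings and filters, a replicate block, leaving out each library, and adding copies of a gene found by name. A test against 1.2-fold and copies found by sequence (blastn 2.17.0, at least 90% identity, 200 bases and 50% of the copy) were chosen after seeing the data. No pair of libraries looked like copies of 1 library.

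The genes and lists were chosen with earlier results of these data known. Library values are given for called genes with an absolute log2 fold change of at least 0.3, for Gapdh, Pkm, Ldha, Pgk1, Vhl and Arnt, for genes that could not be tested and for Vegfa, added after its values were seen. For the further lists the 3 called genes with the largest change are named, beside Acod1, Epas1, Myc and Txnip. Some genes of the reference list are not reported here. Slc2a3, Slc2a8, Egln2 and the markers named were chosen after their values were seen.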

Additional observations from a re-analysis of the deposited data

Results flagged for a closer look

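In a group of 4 libraries, 1 library stood far from the other 3 for 2 genes. For Hk2 it was LMF replicate 4, with 96.4 CPM against 80.7 to 83.2 CPM elsewhere in its group. For Pfkfb4 it was LMF replicate 1, with 53.5 CPM against 60.2 to 61.2 CPM, all of them below the Control range. Of 62 groups looked at, 2 were so marked, and chance marks about 1 in 20, or 3.1 of 62.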

How the results depend on the processing

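Of the 31 tested genes, 31 kept direction and call with DESeq2 size factors, with library size alone, with the CPM filter, with no filter and with copies added by name or by sequence. Calls that did change were those of Hk3, Pkm, Bnip3l, Gapdh, Ldha and Egln1, given above, and of Pfkl, which passed without Control replicate 3 (edgeR adjusted p = 0.0424). No scaling moved the median log2 fold change of all genes by more than 0.008.

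Against a change of 1.2-fold, 1392 genes passed, and the glycolytic genes were 4 higher and 1 lower, the HIF-linked 1 higher and 0 lower. On log2 FPKM at either pseudocount, 2 HIF-linked genes were lower, 3 of the HIF machinery were lower and 1 regulator was lower. With no filter 1 other isozyme was higher and 1 pyruvate gene lower, and 2 pentose genes were lower with no filter and with limma-voom. The cause was not tested. Leaving out a library gave 0 to 2 HIF-linked genes lower (0 where Bnip3l was lost, 2 without LMF replicate 1), 1 to 2 other isozymes higher, 1 to 2 pentose and 1 to 2 pyruvate genes lower, 3 to 7 HIF machinery genes lower, 1 to 3 regulators lower and 1 to 3 reference genes lower. Signs of values near 0 turned: Vegfa (lowest -0.04) to 0.02 without Control replicate 3 and 0.01 without LMF replicate 1; Bnip3 (lowest -0.10) to 0.01 without Control replicate 1 or 3, 0.07 without LMF replicate 2 and 0.02 without LMF replicate 4; Ndrg1 (lowest -0.06) to 0.01 without Control replicate 4 and 0.06 without LMF replicate 4. None of these passed.

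Libraries with the same replicate number did not deviate together (correlations from -0.0129 to 0.0284, and 1 of the 4 numbers had its highest correlation with itself). With the replicate block 4774 genes were called, 2 pentose genes and 1 pyruvate gene were lower, and no call of the 31 genes changed.

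Depth limits Pfkm, Bnip3, Slc16a1 and Egln3, with 124 to 450 counts a library. It also limits genes of the further lists, such as Ak4 with 26 to 84 counts a library, Arnt2 with 76 to 190 and Shpk with 79 to 171.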

Other observations

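Several genes often used as reference genes were not level between these groups, and Pgk1, described above, is among them. Of the 13 on the list 6 were called, or 46.2%, against 34.4% of all tested genes. Ywhaz, a 14-3-3 protein, rose by 0.32 ± 0.04 (edgeR adjusted p = 5.35e-09), from 359 to 381 CPM in Control to 451 to 482 CPM in LMF. Actb rose by 0.21, and Rplp0 (-0.14) and Gusb (-0.11) fell. B2m (0.00), Hprt (0.01), Ppia (0.11), Tbp (-0.13) and Sdha (-0.07) did not pass, nor did Gapdh. Except for Pgk1, Gapdh and Ywhaz, these genes were named after their values were seen.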
